A study of Arabidopsis thaliana with 12 samples.

Results

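Late embryogenesis abundant (LEA) proteins are small hydrophilic proteins that accumulate as seeds dry and in vegetative tissue short of water, where they are thought to protect other proteins and membranes. Many of their genes are induced by abscisic acid (ABA), a hormone that also restrains the outgrowth of axillary buds in Arabidopsis. Linker histones bind the DNA between nucleosomes, and HIS1-3 is the divergent Arabidopsis variant that drought and ABA induce.

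The expression of 4 genes linked to drying or salt stress was followed across axillary buds of the Arabidopsis rosette, among 13513 probe sets with a single named gene and 22746 that are not controls. They were LEA4-5 (AT5G06760), a LEA protein gene of group 4, HIS1-3 (AT2G18050), AT1G47980, annotated as desiccation-like, and AT1G16850, which salt and ABA induce. They were chosen by their measured position difference, higher values in the lower than in the upper bud at high R:FR, so that difference is given as a description, with no test. For LEA4-5 the same holds at low R:FR, because its value there was known when it was chosen.

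Total RNA of rosette axillary buds of the Col-8 accession (genetic background Col-0) at growth stage 6.00 was hybridised to Affymetrix ATH1 arrays, 12 in all, in 4 groups of 3. The groups were bud n at high R:FR, bud n at low R:FR, bud n-2 at high R:FR and bud n-2 at low R:FR, where bud n-2 sits lower on the rosette than bud n. R:FR is the ratio of red to far-red light, and a low ratio is the signal that neighbouring plants give when they shade each other. All plants had 3 days at 4 °C, then 18 h photoperiods at 185 micromoles per square metre per second and 24 °C by day and 18 °C by night. The labels name no transgene or mutation. They do not say whether the replicates were separate plants or how many buds were pooled, so the p-values speak only to the spread among these arrays, which may be technical.

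Values are MAS5 intensities on a linear scale with a trimmed mean of 100 on every array, and the number of arrays limits their precision. A probe set is called dim on an array when it lies at or under that array's own 40th percentile, an intensity of 18.1 to 19.1 in bud n and of 21.998 to 22.978 in bud n-2. Where a gene was dim on every array of a group, only a lower bound of its fold is given, after dim values are lifted to that percentile. Levels are not compared between genes, since probe sets differ in how strongly they bind. In such bulk samples, fewer cells of a type and less RNA per cell cannot be told apart.

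LEA4-5 was bright in bud n-2 and near the dim limit in bud n. Its intensity in bud n was 11.6, 27.3 and 32.8 at high R:FR and 11.7, 10.5 and 25.3 at low R:FR. In bud n-2 it was 137, 79.0 and 91.9 at high R:FR and 148, 155 and 119 at low R:FR. Every bud n-2 array lay above every bud n array, and 2 of 3 bud n arrays at high R:FR and 1 of 3 at low R:FR were above their percentile. The group means were 23.9 ± 11.0 and 15.8 ± 8.26 in bud n, under high and low R:FR, and 103 ± 30.3 and 141 ± 19.0 in bud n-2 (SD, n = 3).

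HIS1-3 was dim on all 6 bud n arrays and bright on all 6 of bud n-2. Its bud n intensities were 0.690, 10.4 and 1.199 at high R:FR and 2.75, 0.765 and 12.9 at low R:FR, a range in which MAS5 values have no reliable order. In bud n-2 they were 225, 298 and 286 at high R:FR and 343, 404 and 488 at low R:FR. The bud n-2 groups did not overlap, with every low R:FR array above every high R:FR array, and their means were 269 ± 38.9 and 412 ± 73.1 (SD, n = 3).

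AT1G47980 had the same on-and-off form, with bud n intensities of 10.1, 6.51 and 7.05 at high R:FR and 5.36, 0.652 and 4.45 at low R:FR, all dim. In bud n-2 it reached 359, 671 and 663 at high R:FR and 842, 666 and 457 at low R:FR. The bud n-2 groups overlapped widely around means of 565 ± 178 and 655 ± 193 (SD, n = 3). AT1G16850 was likewise dim on all 6 bud n arrays, at 0.707, 10.5 and 5.09 at high R:FR and 5.66, 2.96 and 7.68 at low R:FR. Its bud n-2 intensities were 83.9, 64.3 and 87.4 at high R:FR and 88.2, 81.6 and 99.2 at low R:FR, with overlapping groups and means of 78.5 ± 12.4 and 89.7 ± 8.89 (SD, n = 3).

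**Figure D1:**
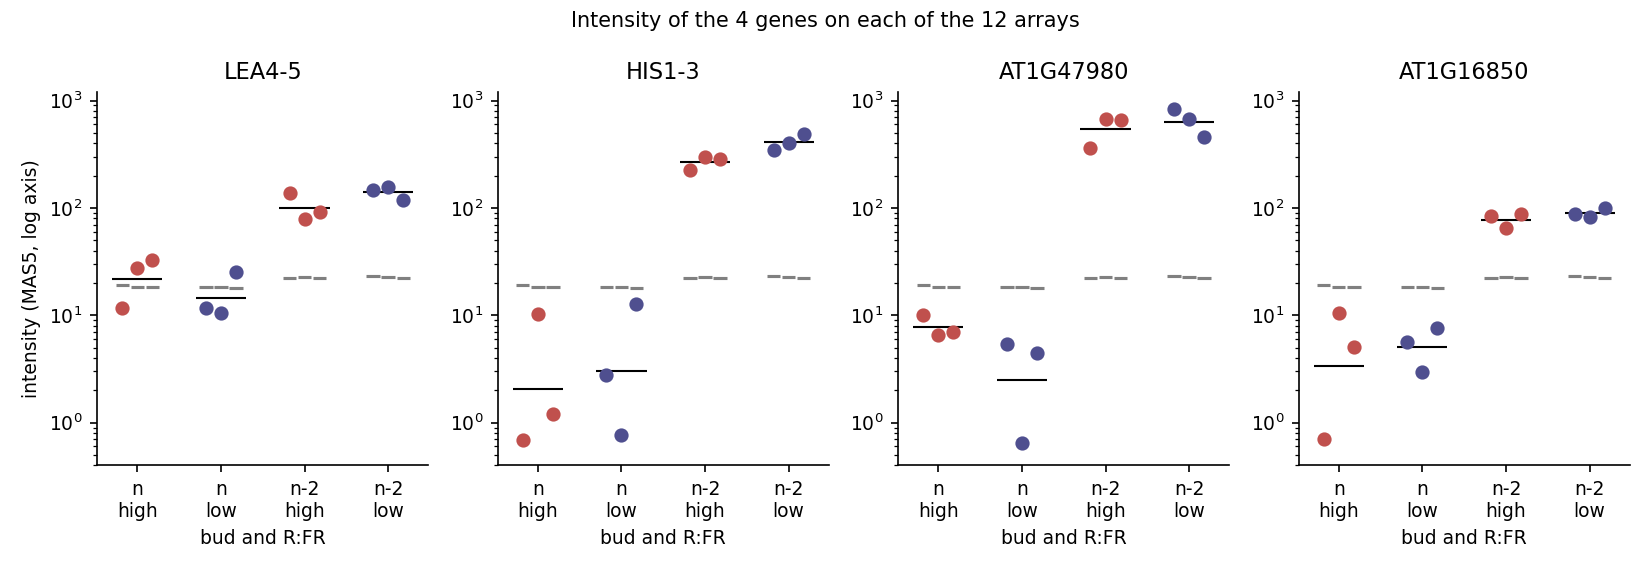
Intensity (log axis) of LEA4-5, HIS1-3, AT1G47980 and AT1G16850 on each of the 12 arrays, by bud position and R:FR; points are arrays in replicate order, black lines are means of log2 values and grey dashes are each array's 40th percentile. All bud n points of HIS1-3, AT1G47980 and AT1G16850 lie under the dashes, all bud n-2 points lie above them, and LEA4-5 straddles the dashes in bud n.

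For all 4 genes, both bud n-2 groups lay above both bud n groups. Within bud n the groups have no order for the 3 genes that were dim there, and those of LEA4-5 overlapped. Within bud n-2 the mean was higher under low than at high R:FR for each gene, with overlapping arrays except for HIS1-3. The replicates did not rank alike across genes. Replicate 1 of bud n-2 at high R:FR had the highest LEA4-5 of its group and the lowest HIS1-3 and AT1G47980. Replicate 3 of bud n-2 at low R:FR had the highest HIS1-3 and AT1G16850 of its group and the lowest LEA4-5 and AT1G47980.

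The position difference at high R:FR, the contrast that chose the genes, was 2.19 on the log2 scale for LEA4-5 (SE 0.34), a 4.58-fold higher intensity in bud n-2. With dim values raised, the mean log2 intensity of LEA4-5 at high R:FR was 4.69 in bud n and 6.64 in bud n-2. HIS1-3 was at least 14.4-fold higher, AT1G47980 at least 29.1-fold and AT1G16850 at least 4.18-fold. Across all 14295 probe sets tested, 20.2% were called higher in bud n-2 in this contrast, 14.3% lower, and 26.1% were higher with no overlap of arrays. These are 2890 and 2044 called probe sets, and with each array centred on its median they were 1744 and 4046. Nothing is read from the 4 genes' place in these shares.

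At low R:FR the position comparison rests on 6 arrays that the choice of genes did not use, and it was tested for HIS1-3, AT1G47980 and AT1G16850. HIS1-3 was at least 22.3-fold higher in bud n-2 than in bud n (limma adjusted p = 2.3e-06). AT1G47980 was at least 34.8-fold higher (limma adjusted p = 3.98e-09) and AT1G16850 at least 4.9-fold higher (limma adjusted p = 3.84e-05). The 12-array fit shares its estimate of spread with the arrays that chose the genes. Fitted to the 6 arrays compared alone, the limma adjusted p was 2.28e-06 for HIS1-3, 2.03e-07 for AT1G47980 and 2.33e-07 for AT1G16850. LEA4-5, as a description, was higher by 3.26 on the log2 scale (SE 0.34), 9.57-fold. Only 1 of its 3 bud n arrays at low R:FR was above the percentile. With dim values raised, its mean log2 intensity at low R:FR was 4.35 in bud n and 7.13 in bud n-2, a smaller difference.

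Position moved much of the array at low R:FR. Of all probe sets tested, 28.4% were called higher in bud n-2 and 23.3% lower, and 33.6% were higher without overlap. The called sets numbered 4058 and 3330, against 2599 and 5202 with median centring. HIS1-3, AT1G47980 and AT1G16850 passed the filter on dim probe sets through bud n-2 arrays alone, for which their 3 arrays at high R:FR were enough, and no count of them is used. With no filter their limma adjusted p at low R:FR was 7.15e-06, 1.66e-08 and 0.000108. The median log2 difference of all tested probe sets was 0.042 under high and 0.047 at low R:FR, and −0.13 and −0.15 when each array was centred on its median.

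The light comparison in bud n asked whether low R:FR changes these genes in the upper bud. LEA4-5, the only one of the 4 measured there, differed by −0.58 on the log2 scale (SE 0.34, 95% interval −1.30 to 0.14, limma adjusted p = 0.908), with overlapping arrays. Few probe sets passed in bud n, 0.0839% of those tested in either direction. The other 3 genes were dim in both groups, and no difference is given for them.

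In bud n-2 none of the 4 genes passed the test of the light response in the fit to all 12 arrays, and 0 of 4 had an unadjusted p under 0.05 (limma). HIS1-3 differed by 0.61 on the log2 scale, 1.52-fold (SE 0.83, 95% interval −1.14 to 2.35, limma adjusted p = 0.702). LEA4-5 differed by 0.49 (SE 0.34, 95% interval −0.23 to 1.21, limma adjusted p = 0.409). For AT1G47980 the difference was 0.23 (95% interval −0.88 to 1.34) and for AT1G16850 0.20 (95% interval −1.13 to 1.53). A lack of response was not shown by these intervals. In this comparison 4.34% of all tested probe sets rose, 5.49% fell, and 14.9% were higher at low R:FR without overlap, as HIS1-3 was. The comparison shares its high R:FR arrays with the contrast that chose the genes.

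The HIS1-3 call turned on how its bud n values entered the fit. Its log2 values had an SD of 2.07 in bud n and 0.22 in bud n-2, both at high R:FR, and a fit to all 12 arrays pools such spreads. With only the 6 bud n-2 arrays the difference stayed 0.61, the SE was 0.14 and HIS1-3 passed (limma adjusted p = 0.0232), as did 3.8% of all tested probe sets in that direction. With all 12 arrays and dim values raised to the percentile it passed too (SE 0.14, limma adjusted p = 0.01), among 5.15% of probe sets. Within the 6-array fit, the call was lost without replicate 1 at high R:FR (limma adjusted p = 0.0682), without replicate 2 at low R:FR (0.0643) and without replicate 3 at low R:FR (0.0989). An exact two-sided permutation test over those 6 arrays gave p = 0.1, the smallest that 3 arrays against 3 allow.

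LEA4-5, AT1G47980 and AT1G16850 passed in neither of these fits. In the 6-array fit LEA4-5 had an SE of 0.18 (limma adjusted p = 0.122), AT1G47980 an SE of 0.24 (0.621) and AT1G16850 an SE of 0.14 (0.422). The 95% intervals of that fit were 0.096 to 0.88 for LEA4-5, 0.30 to 0.91 for HIS1-3, −0.30 to 0.75 for AT1G47980 and −0.10 to 0.50 for AT1G16850. LEA4-5 depended on 1 array: without replicate 1 at high R:FR, the highest of its group, its difference was 0.71 and it passed in the 6-array fit (limma adjusted p = 0.0196). Without that same array the difference of AT1G47980 turned to −0.071. The exact permutation p was 0.2 for LEA4-5, 0.6 for AT1G47980 and 0.4 for AT1G16850.

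**Figure D2:**
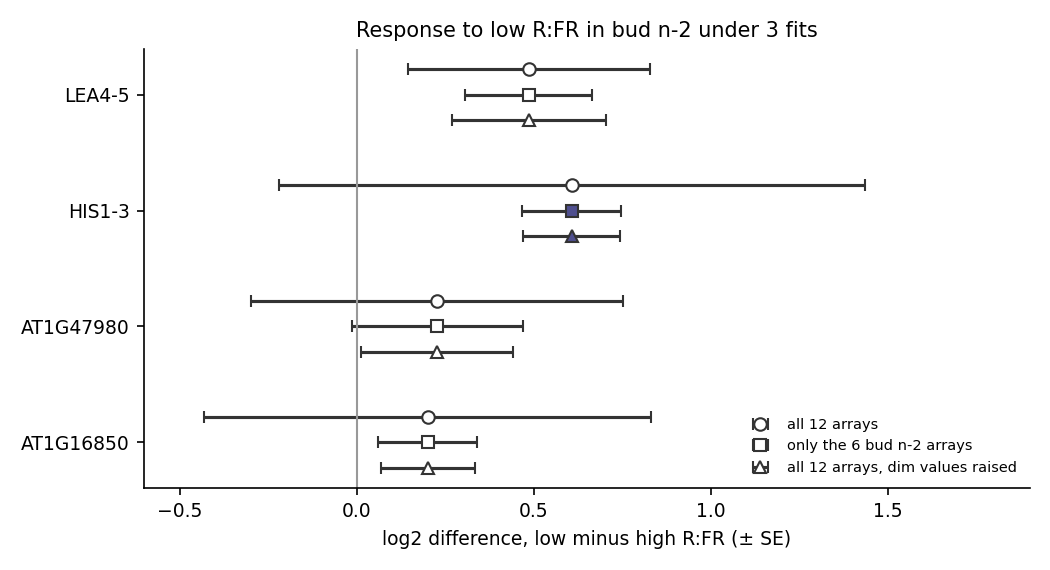
Difference between low and high R:FR in bud n-2 (log2 scale, ± SE) for the 4 genes under 3 fits, to all 12 arrays (circles), to the 6 bud n-2 arrays (squares) and to all 12 arrays with dim values raised (triangles); filled symbols have a limma adjusted p under 0.05. The estimates are the same in each fit, and the SE of HIS1-3 is 0.83 in the first and 0.14 in the other two.

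The difference between the light responses of the 2 positions equals the position difference at low R:FR minus that at high R:FR, which chose the genes, so it is a description here, with no test. For LEA4-5 it was 1.07 on the log2 scale (SE 0.48), and 0.82 with dim values raised. In all, 1.03% of tested probe sets passed an interaction test in either direction. For HIS1-3, AT1G47980 and AT1G16850 the term rests on bud n values that were all dim, and with those raised it was 0.64, 0.26 and 0.23.

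Most LEA genes with a probe set stayed under the dim limit in these buds. Of 55 loci on a LEA family list, written with earlier results of these data known, 37 had a single-gene probe set, and 24 of these were dim on all 12 arrays. Of the 13 tested, LEA4-5 is one. Of the other 12, LEA18 and AT3G17520 were above their percentile on no bud n array and are left out of the position counts. AT3G02480 stays in the counts and medians. It was above its percentile on 0 of 3 bud n arrays at high R:FR and 1 of 3 at low R:FR. It therefore passed the filter only with bud n-2 arrays, and its calls as higher are a description. At high R:FR 7 of the remaining 10 were called higher in bud n-2, AT3G02480 among them, and 1 lower. Of all tested probe sets 20.2% and 14.3% were so called, and the median log2 difference was 0.61 beside 0.042. At low R:FR 6 were called higher, again with AT3G02480, and 1 lower, beside 28.4% and 23.3%, with a median of 0.63 beside 0.047. Because AT3G02480 is in them, these counts and medians are a description.

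LTI30, a dehydrin gene induced by cold and ABA, was higher in bud n-2 by 2.87 on the log2 scale at high R:FR (SE 0.31, limma adjusted p = 2.65e-06) and by 3.67 at low R:FR (SE 0.31, limma adjusted p = 6.57e-08). Its mean intensity was 43.4 ± 21.5 and 21.6 ± 8.17 in bud n, under high and low R:FR, and 285 ± 39.6 and 263 ± 19.1 in bud n-2 (SD, n = 3). AT3G02480, a LEA family gene, was at least 6.36-fold higher at high R:FR and higher by 3.32 on the log2 scale at low R:FR, as a description. Only 1 of its 3 bud n arrays at low R:FR was above the percentile, and it passed the filter only with bud n-2 arrays. With dim values raised, its mean log2 intensity at low R:FR was 4.38 in bud n and 7.29 in bud n-2. COR15A, which encodes a chloroplast protein that protects membranes during freezing, was higher by 1.42 and by 1.71 (limma adjusted p = 5.18e-06 and 2.73e-07).

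Other members of the family are named here after their values were seen. AT2G46140 ran the other way, lower in bud n-2 by −0.73 at high R:FR and by −0.92 at low R:FR on the log2 scale (limma adjusted p = 8.33e-05 and 3.25e-06). AT2G44060 differed by −0.045 and 0.12 and passed under neither light. AT1G54410, a dehydrin gene, was higher by 0.43 at high R:FR (limma adjusted p = 0.00646), and its 0.23 at low R:FR did not pass (0.0872) but did with only the arrays compared (0.0196) and, at 0.46, with quantile normalization (0.00013). DI21 differed by −0.069 and −0.22, and the latter passed as lower with only the arrays compared (limma adjusted p = 0.0335) and, at −0.42, with median centring (0.00566). LEA18 and AT3G17520 were dim in bud n on every array and were tested only through bud n-2. AT3G17520 was at least 2.93-fold higher under high and at least 4.86-fold higher at low R:FR.

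**Figure D3:**
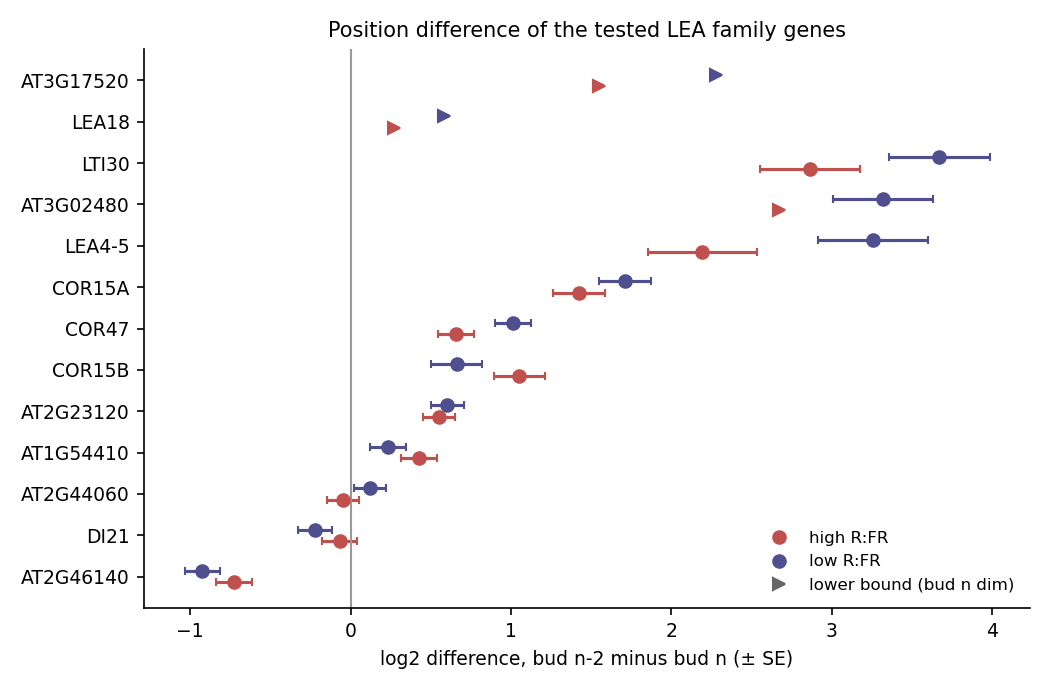
Position difference (bud n-2 minus bud n, log2 scale, ± SE) of the 13 tested LEA family genes under high (red) and low (blue) R:FR; triangles are lower bounds for genes dim on every bud n array of that light. LEA4-5 lies between AT3G02480 and COR15A, and AT2G46140 is below 0 under both lights.

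The LEA genes gave few calls in the light comparisons, and no pattern of the family is read from them. In bud n, LEA18 and AT3G17520 were dim on every array and are left out. Of the other 10 without LEA4-5, 0 passed (limma), beside 0.0839% of all tested probe sets in either direction, with a median of −0.11. Unadjusted p was under 0.05 for COR15A, at −0.79, and LTI30, at −0.92 (limma). In bud n-2, 0 of the 12 LEA genes other than LEA4-5 rose and 2 fell, beside 4.34% and 5.49% of all tested probe sets, with a median of −0.027. These were COR15B, at −0.63 (limma adjusted p = 0.0197), and AT2G46140, at −0.38 (limma adjusted p = 0.0381), and with single arrays left out 0 to 3 fell. COR15B did not pass with no trend (limma adjusted p = 0.0599), nor AT2G46140 with 32 added (0.0545), no filter (0.0585) or only the arrays compared (0.101). AT3G17520 resembled HIS1-3 in form. Its bud n-2 arrays ran from 48.0 to 65.2 under high and from 80.7 to 97.7 at low R:FR, a difference of 0.70 that did not pass with all 12 arrays (limma adjusted p = 0.667) and passed with the 6 bud n-2 arrays (limma adjusted p = 0.0136).

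Of 40 ABA-responsive loci on a list written with earlier results known, 5 had a named probe set, and 2 of these are among the 4 genes. The other 3, COR15A, COR15B and COR47, a dehydrin gene, were called higher in bud n-2 under both lights, COR15B by 1.05 and 0.66 and COR47 by 0.66 and 1.01 on the log2 scale. All 3 are also on the LEA list, and the shares of all tested probe sets called higher were 20.2% and 28.4%. In bud n-2 the light response of COR47 was 0.19 (limma adjusted p = 0.317) and that of COR15A −0.50 (limma adjusted p = 0.0636). Genes of ABA synthesis and perception (24 loci), drought and cold transcription factors (11) and bud dormancy genes (9) were not analysed here by name.

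The other linker histone genes were bright in all 4 groups. AT1G06760 had mean intensities of 1376 ± 30.2 and 1426 ± 86.5 in bud n, under high and low R:FR, and of 1449 ± 100 and 1434 ± 74.9 in bud n-2 (SD, n = 3). Its position difference was 0.072 at high R:FR (95% interval up to 0.25, limma adjusted p = 0.546) and 0.0083 at low R:FR (up to 0.19, limma adjusted p = 0.942). With quantile normalization the latter was 0.21 and passed (limma adjusted p = 0.0473). AT2G30620 had means of 922 ± 109 and 947 ± 34.4 in bud n and of 1001 ± 170 and 950 ± 48.8 in bud n-2, with position differences of 0.11 (limma adjusted p = 0.480) and 0.0047 (limma adjusted p = 0.976). Their light responses in bud n-2 were −0.014 and −0.062. AT3G62730, the other desiccation-like gene, was dim on all 12 arrays, at 7.68 or less.

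**Figure D4:**
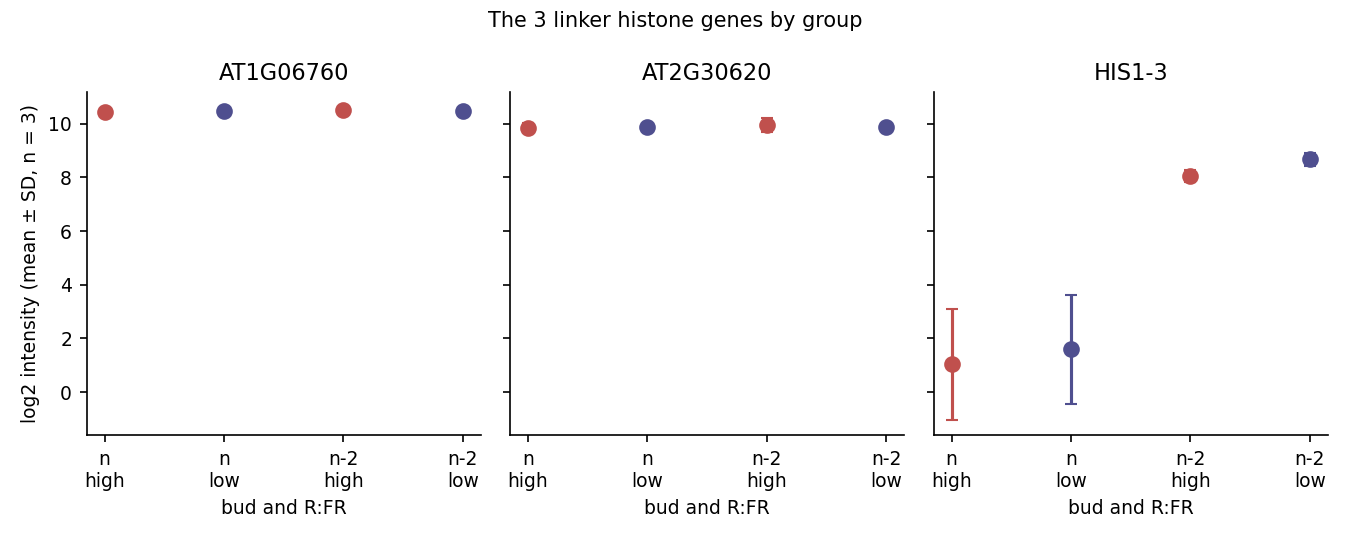
Mean log2 intensity (± SD, n = 3 arrays) of the linker histone genes AT1G06760, AT2G30620 and HIS1-3 in the 4 groups. HIS1-3 changes with position, while the position differences of AT1G06760 and AT2G30620 passed no test with the deposited scaling, and that of AT1G06760 at low R:FR passed with quantile normalization. Bars shorter than the symbol are hidden, and heights are not comparable between genes.

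Markers of other tissues were set beside these results. Of 15 anther and tapetum markers, 2 were measured, AMS and AT5G07230 (A9), and their summed intensity was 318 to 398 and 153 to 241 in bud n, under high and low R:FR, and 503.6 to 778 and 550 to 1137 in bud n-2. AT5G07230, a tapetum gene, was higher in bud n-2 by 1.18 at high R:FR and by 2.43 at low R:FR on the log2 scale (limma adjusted p = 0.00155 and 5.69e-07). AMS, a tapetum transcription factor, differed by −0.026 and 1.14 (limma adjusted p = 0.929 and 7.28e-05).

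AT5G07230 also shared its lowest replicates with AT1G47980 within bud n-2. Its intensities were 400, 705 and 680 at high R:FR and 900, 984 and 452 at low R:FR. In both genes replicate 1 was low at high R:FR and replicate 3 was low at low R:FR, and the part of anther tissue in these results was not tested. Replicates 1 and 2 at low R:FR ranked in opposite order in the 2 genes. AMS did not run with them at high R:FR, at 103, 66.3 and 98.8, where its replicate 1 was highest. At low R:FR it was at 124, 153 and 97.8, and its replicate 3 was lowest too. In bud n, AT5G07230 stayed between 107 and 297, where AT1G47980 was dim.

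Of 11 touch and wounding markers 1 was measured, STZ, a zinc finger gene that drought and salt also induce. It ran from 0.399 to 3.54 in bud n and from 9.45 to 45.4 in bud n-2. It passed the filter through bud n-2 arrays alone. There only 1 of 3 arrays at high R:FR and 2 of 3 at low R:FR were above their percentile. As a description, the lower bounds from its mean log2 values were 1.21-fold under high and 1.11-fold at low R:FR, and its part was not tested. The 1 seed maturation marker measured of 19, OLEO3, an oil body protein gene, lay between 24.6 and 39.95 on all arrays and passed no comparison. RCA, the 1 leaf photosynthesis marker measured of 13, lay between 2800 and 3667. CLV3 and LAS, the 2 of 11 shoot meristem markers measured, were dim on all 12 arrays. The 25S ribosomal RNA control moved with position, from 1704 ± 26.5 and 1646 ± 163 in bud n to 2205 ± 115 and 2516 ± 344 in bud n-2 (SD, n = 3), and its part was not tested. The log2 ratio of the 3' to the 5' actin control, a sign of RNA integrity and labelling, was 4.31 ± 0.042 and 4.63 ± 0.15 in bud n and 4.16 ± 0.12 and 4.17 ± 0.15 in bud n-2 (SD, n = 3). At low R:FR its positions did not overlap (4.50 to 4.79 against 4.03 to 4.32), and its part was not tested. The same ratio for the GAPDH control was 0.87 ± 0.15 and 0.95 ± 0.083 in bud n. In bud n-2 it was 0.81 ± 0.32 and 0.995 ± 0.10 (SD, n = 3). The GAPDH positions overlapped at low R:FR (0.88 to 1.05 against 0.91 to 1.11).

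The genes most like each of the 4 were ranked by Pearson r of log2 intensity over the 12 arrays, with dim values raised, among 7739 other named probe sets. Such an r mostly repeats the split between bud positions: 620 to 742 genes had r above 0.9 with a given gene. It is a description, with no test.

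Nearest to LEA4-5 were AT3G14595 (r = 0.984), AT4G37560 (0.984) and AT5G05110 (0.980), a cysteine protease inhibitor gene. The mean intensity of AT3G14595 was 127 ± 17.2 and 112 ± 10.5 in bud n, under high and low R:FR, and 278 ± 21.0 and 354 ± 22.5 in bud n-2 (SD, n = 3). Nearest to HIS1-3 were AT1G19960 (r = 0.997), AT2G36220 (0.997) and AT1G76590 (0.996), a PLATZ family transcription factor gene with means of 81.5 ± 5.26 and 115 ± 19.7 in bud n-2.

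AT1G47980 was most like AT1G02813 (r = 0.997), AT3G16220 (0.992) and AT1G68570 (0.991). AT1G02813 was dim on every bud n array and had means of 352 ± 73.8 and 356 ± 100 in bud n-2 under high and low R:FR (SD, n = 3). AT1G16850 was most like AT1G68570 (r = 0.996), AT1G67870 (0.995) and CHR42 (0.994), an SNF2-type chromatin remodelling gene. AT1G68570, which encodes a transporter of the NPF family, was bright in both positions, at 163 ± 3.67 and 162 ± 4.66 in bud n and 290 ± 13.5 and 312 ± 7.66 in bud n-2.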

How the data were processed

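Per the labels, each array received the biotin-labelled RNA of 1 sample. The authors deposited linear intensity values, made with MAS5 and GCOS per the submitters' processing notes. The deposited table has 22810 probe sets, and its 64 controls entered no test. The platform annotation and RefSeq's gene table gave the gene names, with 13513 probe sets of 1 gene, 503 of several and 8794 unlisted. No sequence or coordinate is printed.

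Values were taken to log2 without an offset. A probe set was kept if it exceeded the 40th percentile of its own array on 3 or more of 12 arrays, which left 14295. Group means were estimated by limma 3.58.1 (R 4.3.3; lmFit, eBayes with a trend) from all 12 arrays. Benjamini-Hochberg adjustment ran over every probe set kept, at 0.05. The code was tested on simulated data. Alternatives covered normalization, offset, filter, variance model, dim values, replicate block, arrays fitted and single arrays left out.

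The 4 genes and 12 gene lists (204 loci, 50 with a named probe set, 23 tested) were chosen with earlier results of these data known. Named genes are the 4 genes, up to 4 of each list by smallest p, and the 3 most alike to each gene; other LEA genes were named after their values were seen. The main fit did not pair arrays by replicate number, and the labels do not say whether the numbers pair them. Deviations of same-numbered arrays correlated at −0.143 to 0.0755, which cannot show that they were unpaired. No arrays were identical (r within groups 0.977 to 0.988).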

Additional observations from a re-analysis of the deposited data

Results flagged for a closer look

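AMS, a tapetum transcription factor gene, had a response to low R:FR of −0.69 on the log2 scale in bud n and of 0.48 in bud n-2, a difference of 1.17 that passed (limma interaction term, adjusted p = 0.0426). Neither response alone passed (limma adjusted p = 0.431 and 0.111). The difference passed in 8 of 20 alternatives, with values of 0.84 to 1.33 and limma adjusted p of 0.0334 to 0.121. It did not pass with no trend (0.121), with no filter (0.0702) or with the replicate block (0.0522), and it was lost without any 1 of 9 arrays. Mean intensity was 89.7 ± 9.95 and 56.3 ± 11.9 in bud n, under high and low R:FR, and 89.4 ± 20.1 and 125 ± 27.5 in bud n-2 (SD, n = 3).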

How the results depend on the processing

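Over 22 alternatives of the position difference at low R:FR, limma adjusted p was 4.18e-12 to 9.73e-05 for HIS1-3, 2.12e-11 to 1.63e-06 for AT1G47980 and 5.61e-10 to 0.000516 for AT1G16850, genes chosen for the same difference at high R:FR. Over 28 alternatives of the light response in bud n-2, limma adjusted p was 0.0100 to 0.836 for HIS1-3, 0.0196 to 0.696 for LEA4-5, 0.333 to 0.989 for AT1G47980 and 0.305 to 0.974 for AT1G16850. Added after seeing the data were the arrays compared with dim values raised, the exact permutation test, and the 6 bud n-2 arrays with each left out. HIS1-3 passed at 0.55 with 32 added before log2 (limma adjusted p = 0.0153) and at 0.61 with dim values raised, with only the arrays compared, and with both (limma adjusted p = 0.0440). With single arrays left out, the bud n-2 light response ran from 0.48 to 0.73 for HIS1-3, from 0.32 to 0.71 for LEA4-5 and from −0.071 to 0.46 for AT1G47980.

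The position difference at high R:FR, as a log2 difference, was 1.26 for LEA4-5, 3.06 for HIS1-3, 3.85 for AT1G47980 and 1.56 for AT1G16850 with 32 added. With dim values raised it was 3.84, 4.86 and 2.06 for the last 3, also with the arrays compared. For AT1G16850 it ran from 3.41 to 5.36 with arrays left out. LEA4-5 at low R:FR was 1.86 with 32 added. The difference of light responses of HIS1-3 turned to −0.010 under quantile normalization and ran from −1.12 to 1.103 with arrays left out, and that of AT1G16850 turned to 0.14 with 32 added and 0.23 with dim values raised, and ran from −1.21 to 0.73.

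With replicate number as a block no call of the 4 genes changed (light response of HIS1-3 in bud n-2 0.61, limma adjusted p = 0.700). The labels give the numbers no shared source, and 1 of 12 arrays correlated best with its own number. Among the other LEA genes AT2G46140 lost its fall in bud n-2 with the block (limma adjusted p = 0.0574).

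Counts over all probe sets also moved by over 1.5 times. Median centring gave 1744 higher and 4046 lower by position at high R:FR (2890 and 2044 as reported) and 2599 and 5202 at low R:FR (4058 and 3330). The difference of responses was called higher for 49 and lower for 98, against 112 higher with 32 added, 95 higher with dim values raised, 27 and 63 with no filter, 78 and 153 with quantile normalization, and 0 and 0 with no trend, and with arrays left out it ran from 2 to 105 higher and from 0 to 159 lower, both lowest without replicate 3 of bud n at high R:FR. The light response in bud n was called higher for 10 and lower for 2, against 3 and 0 with only the arrays compared and dim values raised, 1 lower in 5 other alternatives, and 6 to 14 higher and 1 to 5 lower with arrays left out. With arrays left out the calls in bud n-2 at low R:FR ran from 252 to 750 higher and from 394 to 882 lower (620 and 785), fewest without replicate 3 of bud n-2 at low R:FR, and 420 fell with only the arrays compared and dim values raised.

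Signal near background limits bud n, where 3 of the 4 genes have only an upper bound.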
